A study of Rattus norvegicus with 24 samples.

Results

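Glutathione, thioredoxin and the antioxidant enzymes were followed through 10 genes, Gpx1, Gpx3, Gclc, Gclm, Gsr, Nqo1, Txnrd1, Cat, Sod1 and Sod2, in the kidneys of hypertensive rats on a diet rich in salt and fat. The genes were chosen by name, with earlier results of these data known, and every probe set that the platform annotation gives to one of them was taken. This found 12 probe sets of 15866 on the array that are not controls, and 10 genes of 10411 with a symbol of their own. Gclc and Txnrd1 had 2 probe sets each, and for these the one of higher mean signal represents the gene. All 12 probe sets passed the filter on low signals, as did 10208 probe sets in all.

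The animals were male SHR-SP rats (spontaneously hypertensive, stroke-prone), an inbred line that develops severe hypertension, so every group carried that background and no group of normal blood pressure was included. From 11 weeks of age they received the salt-fat diet, which was 1% NaCl in the drinking water together with chow of 24.5% fat, or a normal diet of powdered chow with water. Whole kidneys were taken after 2 or 8 weeks. The 4 groups were the salt-fat diet for 2 weeks, the normal diet for 2 weeks, the salt-fat diet for 8 weeks and the normal diet for 8 weeks, with 6 animals and 6 arrays in each. Salt and fat were always given together, so their separate effects cannot be told apart, and the 2 chows came from different makers. In RNA from whole kidney, fewer cells of a type and less RNA per cell cannot be told apart. Levels are signals of Affymetrix arrays on a linear scale, and a signal ranks the same probe set across arrays but does not rank the abundance of different genes. On the normal diet for 8 weeks arrays 1 and 2 stood apart at the dim end, with a 1st percentile of 2.4 and 3.0 in signal against 0.7 to 1.2 on the other 22, and leaving both out called none of the 10 genes at 8 weeks. A difference is the log2 value on the salt-fat diet minus that on the normal diet, and a gene was called at an adjusted p under 0.05 in limma over all probe sets tested.

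Superoxide, which is formed by oxidases and by mitochondria, is turned into hydrogen peroxide by superoxide dismutases, and catalase and the glutathione peroxidases remove the peroxide. Glutathione, the tripeptide that feeds the peroxidases with electrons, is made by glutamate-cysteine ligase and returned to its reduced form by glutathione reductase, while thioredoxin reductase does the same for thioredoxin. The transcription factor NRF2 induces many of these genes under oxidative or electrophilic stress through antioxidant response elements. In the kidney the proximal tubule is a main site of glutathione turnover and the main source of the glutathione peroxidase that circulates in plasma.

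The sequences upstream of Gpx1 and Gpx3 are shown because these were the 2 genes called, and that of Gclm because it is a well-known NRF2 target that holds the core of the antioxidant response element. They are the 250 bases before the annotated start, from RefSeq on the rat assembly GRCr8, at chr8:117905212-117905461, plus strand, for Gpx1, chr10:39529085-39529334, plus strand, for Gpx3, and chr2:213031885-213032134, plus strand, for Gclm. Capitals mark matches to TGACNNNGC, searched on both strands.
Gpx1: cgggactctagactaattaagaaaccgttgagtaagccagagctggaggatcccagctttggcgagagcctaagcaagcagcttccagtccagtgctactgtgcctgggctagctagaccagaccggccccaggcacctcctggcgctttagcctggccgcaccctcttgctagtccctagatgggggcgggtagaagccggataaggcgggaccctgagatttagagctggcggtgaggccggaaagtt
Gpx3: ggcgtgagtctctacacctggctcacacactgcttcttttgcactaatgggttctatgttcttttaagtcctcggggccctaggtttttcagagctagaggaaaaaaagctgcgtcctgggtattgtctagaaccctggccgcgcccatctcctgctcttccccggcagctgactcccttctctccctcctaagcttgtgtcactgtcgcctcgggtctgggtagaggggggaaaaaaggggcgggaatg
Gclm: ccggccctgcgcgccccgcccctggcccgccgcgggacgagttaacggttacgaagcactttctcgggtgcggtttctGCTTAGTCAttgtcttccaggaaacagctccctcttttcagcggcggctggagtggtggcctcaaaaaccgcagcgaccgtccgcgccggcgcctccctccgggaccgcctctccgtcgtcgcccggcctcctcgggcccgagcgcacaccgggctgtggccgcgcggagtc
Of the 10 genes, 9 had an entry in the RefSeq promoter table (not Gsr), and 3 of these held the core in this window. They were Gclm, as GCTTAGTCA on the strand shown, 172 bases before the start, Sod2, as GCAGGGTCA, and 1 of the 2 annotated starts of Txnrd1, as GCTTTGTCA, each the reverse complement of the core. The core occurred in 3373 of 33469 promoters of the same length, which is 10.08%. A match is a stretch of letters and not a bound site.

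At 2 weeks 2 of the 10 genes were called, and both were lower on the salt-fat diet, Gpx1 and Gpx3. Of all probe sets tested, 8.74% were called in this comparison and 4.19% were called as lower, and the count of 2 is given as a description against this background. The log2 difference lay below 0 for 9 of the 10 genes, all but Nqo1, against 46.6% of all probe sets, with a median of -0.215 for the genes and 0.0165 for all probe sets. That share rose with brightness, and several of the 10 genes are bright. It was 93.0% of the brightest 100 other probe sets, 69.0% of the next 400, 51.8% of the next 500 and 44.8% of the rest. Calls as lower numbered 33 in that brightest 100, 61 in the next 400, 49 in the next 500 and 283 in the other 9196. The share of 4.19% is therefore low as a background for bright genes such as Gpx1 and Gpx3. Before adjustment 7 of the 10 genes had a p under 0.05, against 22.8% of all probe sets. At 8 weeks none was called, against 9.14% of all probe sets, and none had an unadjusted p under 0.05, against 23.7%. Their differences at 8 weeks spanned -0.19 to 0.05 with a median of -0.06, 8 of the 10 lay below 0 against 50.3% of all probe sets, and the smallest adjusted p in limma was 0.288.

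**Figure D1:**
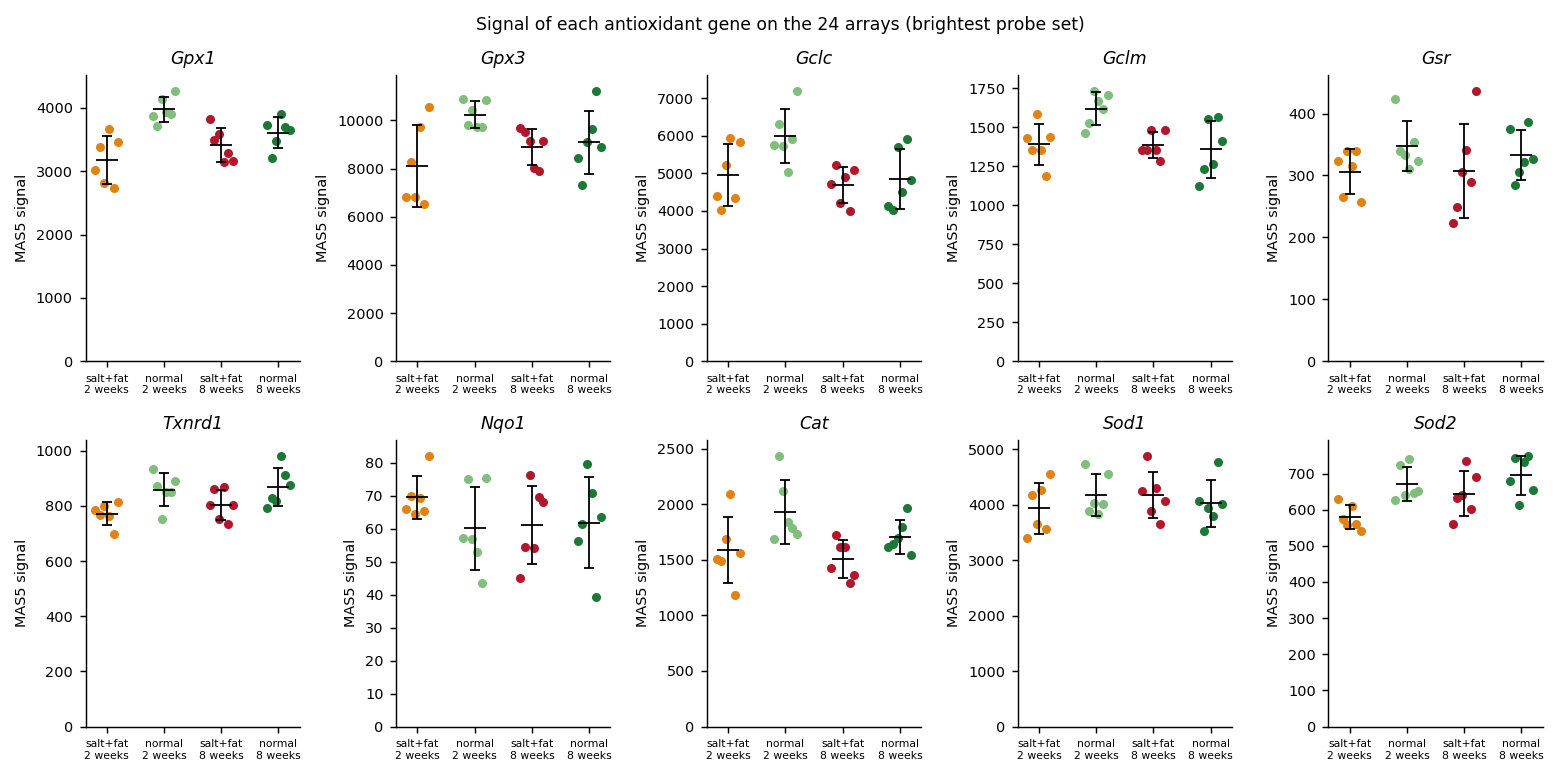
Signal of the 10 genes on every array, 1 panel a gene, with the signal on a linear axis from 0. Points are single arrays (6 a group) and bars are group means ± SD, with the salt-fat diet left of the normal diet at 2 and at 8 weeks. The Gpx1 points of the 2 diets do not overlap at 2 weeks, while those of every other gene do.

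Gpx1, the cytosolic and mitochondrial glutathione peroxidase that uses selenium, had signals of 2731 to 3672 with a median of 3202 on the salt-fat diet for 2 weeks, against 3720 to 4271 with a median of 3925 on the normal diet. The groups did not overlap, which held for no other member and for 4.85% of all probe sets tested. The means were 3181 ± 381 on the salt-fat diet and 3975 ± 198 on the normal diet (SD, n = 6 each), a log2 difference of -0.33 ± 0.07 (SE) with a 95% interval of -0.47 to -0.18 and an adjusted p of 0.00344 in limma. At 8 weeks the signals were 3148 to 3825 with a median of 3394 on the salt-fat diet, against 3217 to 3905 with a median of 3676 on the normal diet. These groups overlapped, and the difference was -0.08 ± 0.07 with a 95% interval of -0.22 to 0.06 and an adjusted p of 0.531 in limma.

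Gpx3, the secreted glutathione peroxidase that the kidney releases into plasma, had signals of 6530 to 10547 with a median of 7547 on the salt-fat diet for 2 weeks, against 9737 to 10884 with a median of 10129 on the normal diet. Of the 6 animals on the salt-fat diet 5 lay below every animal on the normal diet, at 6530, 6817, 6839, 8255 and, narrowly, 9718, while the highest, at 10547, lay inside the other range, so the groups overlapped. The difference was -0.36 ± 0.10 (SE, n = 6 each), with a 95% interval of -0.57 to -0.15 and an adjusted p of 0.0279 in limma. The call rested on single animals, since it was lost without any 1 of 3 animals of each diet, with differences of -0.35 to -0.30 and adjusted p values of 0.0515 to 0.0795 in limma. At 8 weeks the signals were 7900 to 9675 with a median of 9139 on the salt-fat diet, and 7300 to 11232 with a median of 8996 on the normal diet. Here the animals on the salt-fat diet lay inside the range of the others, and the difference was -0.02 ± 0.10 with an adjusted p of 0.923 in limma, or -0.12 with an adjusted p of 0.590 without the 2 normal-diet arrays that stood apart.

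Glutamate-cysteine ligase, which carries out the rate-limiting step of glutathione synthesis, has a catalytic subunit, Gclc, and a modifier subunit, Gclm. Gclm had signals of 1187 to 1588 with a median of 1392 on the salt-fat diet for 2 weeks, against 1463 to 1735 with a median of 1643 on the normal diet. All 6 animals on the salt-fat diet lay below the median of the normal diet, but the groups overlapped, and the difference of -0.22 ± 0.08 missed the threshold with an adjusted p of 0.0697 in limma. Gclc had signals of 4016 to 5936 with a median of 4810 on the salt-fat diet, against 5042 to 7199 with a median of 5846 on the normal diet. Its difference was -0.28 ± 0.11 with an adjusted p of 0.101 in limma, and its other probe set gave -0.11 with an adjusted p of 0.513. At 8 weeks the differences were 0.04 for Gclm and -0.04 for Gclc. At 2 weeks Gsr, glutathione reductase, averaged 306 ± 36.5 on the salt-fat diet and 347 ± 40.5 on the normal diet (SD, n = 6 each). Its difference was -0.18 ± 0.12 at 2 weeks and -0.14 at 8 weeks, with adjusted p values of 0.389 and 0.516 in limma.

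Txnrd1, the cytosolic thioredoxin reductase and like Gpx1 a selenoprotein, averaged 771 ± 41.3 on the salt-fat diet for 2 weeks and 859 ± 60.1 on the normal diet (SD, n = 6 each). All 6 animals on the salt-fat diet lay below the median of the normal diet. The difference was -0.15 ± 0.06 with an adjusted p of 0.140 in limma, and the other probe set gave -0.29 ± 0.11 with an adjusted p of 0.118. Both probe sets lay below 0 again at 8 weeks, at -0.11 and -0.10, and neither was called. Nqo1, the quinone reductase often read as a marker of NRF2 activity, was near the filter, with 21 of 24 arrays above the 40th percentile of their array. Its signals were 64.4 to 82.1 with a median of 67.8 on the salt-fat diet for 2 weeks, against 43.6 to 75.3 with a median of 57.0 on the normal diet. The groups overlapped, and the differences were 0.21 ± 0.15 at 2 weeks and -0.01 at 8 weeks, with adjusted p values of 0.427 and 0.986 in limma.

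Sod2, the mitochondrial superoxide dismutase, had signals of 542 to 630 with a median of 568 on the salt-fat diet for 2 weeks, against 627 to 740 with a median of 648 on the normal diet. The ranges touched over a few units, all 6 animals on the salt-fat diet lay below the other median, and the difference was -0.21 ± 0.07 with an adjusted p of 0.0549 in limma. Cat, the peroxisomal catalase, had signals of 1186 to 2096 with a median of 1536 on the salt-fat diet, against 1685 to 2435 with a median of 1814 on the normal diet. In Cat 5 of 6 animals lay below the other median, and the difference was -0.29 ± 0.10 with an adjusted p of 0.0823 in limma. Sod1, the cytosolic superoxide dismutase, averaged 3935 ± 459 on the salt-fat diet and 4179 ± 374 on the normal diet (SD, n = 6 each). Its difference was -0.09 ± 0.08 with an adjusted p of 0.552 in limma. At 8 weeks the differences were -0.11 for Sod2, -0.19 for Cat and 0.05 for Sod1, with adjusted p values in limma of 0.345, 0.288 and 0.744. Across the 10 genes the diets overlapped in every case at 8 weeks, when 3.35% of all probe sets did not.

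**Figure D2:**
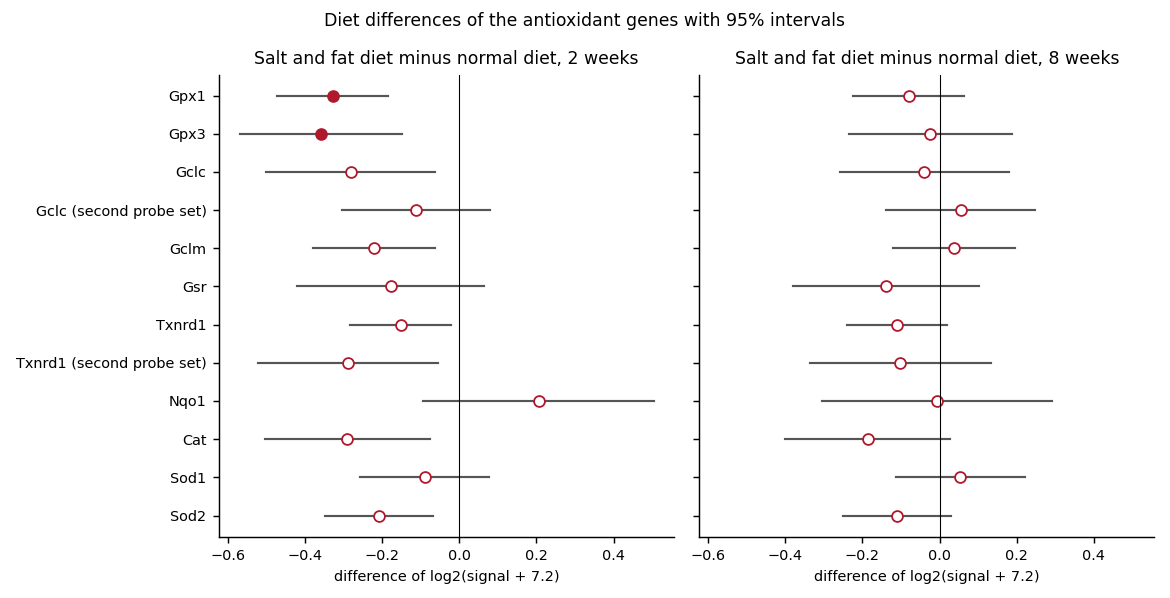
Log2 difference of the salt-fat diet minus the normal diet for each of the 12 probe sets, at 2 and at 8 weeks, with 95% intervals from limma and filled points where the adjusted p was under 0.05. The intervals of Gpx1 reach from -0.47 to -0.18 at 2 weeks and from -0.22 to 0.06 at 8 weeks, and Nqo1 alone lies above 0 at 2 weeks.

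The difference between the 2 diet effects, that at 8 weeks minus that at 2 weeks, was tested directly, and 0 of the 10 genes were called, against 0.382% of all probe sets. It was 0.25 ± 0.10 (SE) for Gpx1 with an adjusted p of 0.316 in limma, and 0.34 ± 0.15 for Gpx3 with an adjusted p of 0.361. These tests share their arrays with the diet comparisons. The calls at 2 weeks and their absence at 8 weeks are therefore not shown to differ, and 3 genes, Gpx1, Gpx3 and Gclm, had an unadjusted p under 0.05, against 11.6% of all probe sets. Between 2 and 8 weeks none of the 10 genes was called on either diet, against 3.53% of all probe sets on the salt-fat diet and 0.0392% on the normal diet. The differences of 8 minus 2 weeks ranged from -0.18 to 0.15 on the salt-fat diet, with a smallest adjusted p of 0.263 in limma, and from -0.31 for Gclc to 0.05 on the normal diet, with a smallest adjusted p of 0.277.

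Arrays differed at the bright end, where several of the 10 genes lie. Gpx3 was the brightest probe set on all 24 arrays, Gclc ranked 5 to 37, Sod1 25 to 57 and Gpx1 43 to 77, whereas Sod2 ranked 777 to 1175 and Nqo1 7570 to 10117. The mean log2 signal of the 159 brightest other probe sets was 11.55 ± 0.11 on the salt-fat diet for 2 weeks and 11.73 ± 0.04 on the normal diet (SD, n = 6 each), a difference of -0.18 with p = 0.002165 in an exact two-sided permutation test, or 0.006495 adjusted over 6 such tests. All 6 arrays of the salt-fat diet were below all 6 of the normal diet by this measure, whereas at 8 weeks the difference was 0.01 with an exact permutation p of 0.909. Within groups, over 24 arrays, Gpx3 followed this level with r = 0.952, Sod1 with 0.813, Gpx1 with 0.732 and Gclc with 0.601, while Gsr, Nqo1 and Sod2 gave values between -0.099 and -0.044. These points share the scaling of each array, so the values are a description. Of the 100 brightest other probe sets 33 were called as lower at 2 weeks and 0 as higher, with a median of -0.18.

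The control probe sets also moved with diet at 2 weeks. The mean level of 18 probe sets for spiked controls was -0.13 on the salt-fat diet and 0.17 on the normal diet. These controls are RNAs added at hybridization, after labelling. The difference was -0.30 on the log2 scale, with an exact permutation p of 0.002165 and an adjusted p of 0.006495. The 3′ to 5′ signal ratio of GAPDH, a common sign of RNA quality, averaged 1.22 ± 0.09 on the salt-fat diet and 1.09 ± 0.07 on the normal diet (SD, n = 6 each), with an exact permutation p of 0.01515 and an adjusted p of 0.0303. At 8 weeks the ratio was 1.16 on both diets, and the spiked controls differed by 0.23 with an exact permutation p of 0.04762 and an adjusted p of 0.07143. With the spiked control level as a covariate neither gene was called, at -0.25 with an adjusted p of 0.0708 for Gpx1 and -0.14 with an adjusted p of 0.50 for Gpx3 in limma. The diets did not overlap on that level at 2 weeks, reaching 0.0684 on the salt-fat diet and starting at 0.0827 on the normal diet. This fit therefore cannot fully separate that level from diet. With the GAPDH ratio as a covariate both were called, at -0.36 with an adjusted p of 0.0159 for Gpx1 and -0.43 with an adjusted p of 0.0481 for Gpx3. After quantile normalization the Gpx1 difference was -0.11 with an adjusted p of 0.187 in limma, and that of Gpx3 was 0 by construction, since this method gives the brightest probe set of each array the same value. With arrays centred on the 159 brightest other probe sets, a setting added after seeing the data, both were called again, at -0.15 with an adjusted p of 0.0377 for Gpx1 and -0.18 with an adjusted p of 0.0346 for Gpx3, but the median of all probe sets tested then lay at 0.20. This centring shifts all probe sets of an array alike, so it leaves the difference of a gene from that median as it was and does not bear on it.

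**Figure D3:**
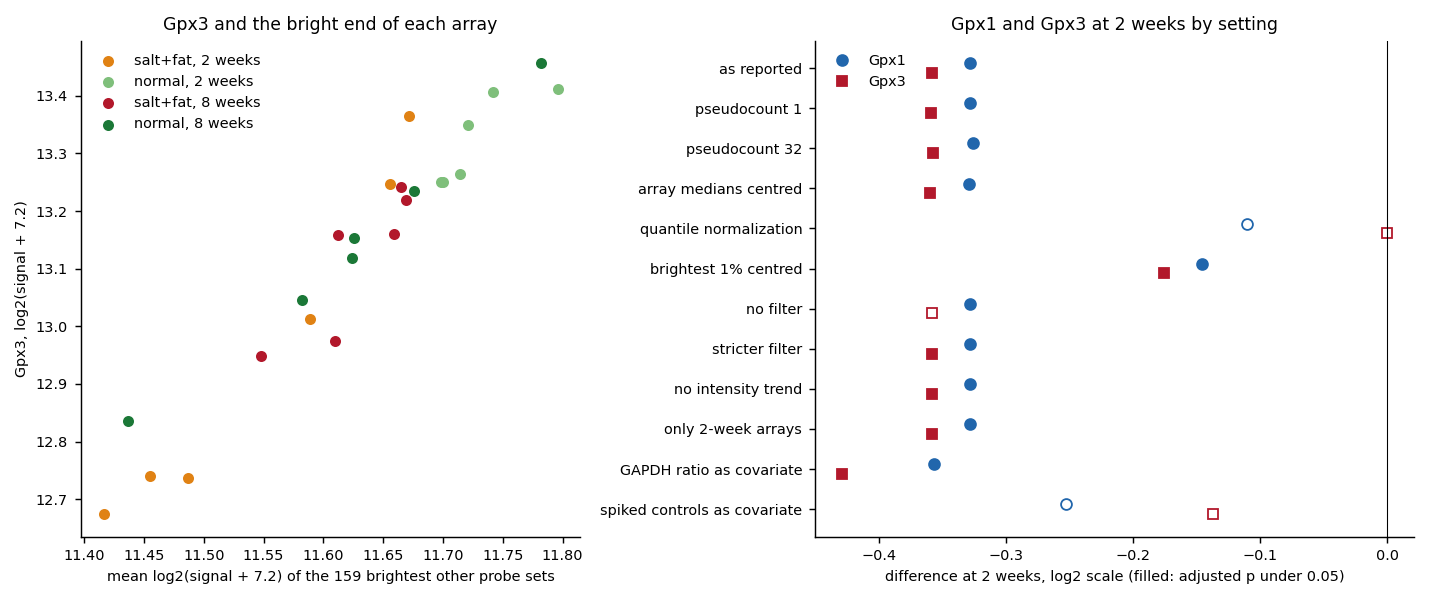
Left, log2 signal of Gpx3 against the mean log2 signal of the 159 brightest other probe sets, 1 point an array and 6 arrays a group; the 2 rise together, and the 2-week arrays of the salt-fat diet lie left of those of the normal diet. Right, log2 difference of Gpx1 and Gpx3 at 2 weeks as reported and under chosen other settings, filled where the adjusted p in limma was under 0.05. The replicate block, the fit without both normal-diet arrays that stood apart and the fits without single arrays are not drawn. Under quantile normalization and with the spiked controls as a covariate neither is filled.

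Cell type markers moved at 2 weeks as well. Their counts stand against 8.74% of all probe sets called at 2 weeks and 9.14% at 8 weeks. Of 14 proximal tubule markers tested, 10 were lower on the salt-fat diet and 0 higher, all 14 lay below 0, and the median was -0.34. Their summed signal was 29260 to 37224 on the salt-fat diet for 2 weeks and 40756 to 43631 on the normal diet, and 30271 to 35219 on the salt-fat diet for 8 weeks against 34825 to 44444 on the normal diet. The 3 brightest of them were Slc34a1, the sodium-phosphate transporter, at -0.38, Miox, an enzyme of inositol breakdown, at -0.33 and Fbp1, an enzyme of gluconeogenesis, at -0.40. These bright markers share the lower bright end of the 2-week salt-fat arrays. Over the 14 markers the differences ran from -0.74 for Hnf4a to -0.18 for Aqp1. At 8 weeks 6 of the 14 were lower and 0 higher. Of 8 markers of the thick ascending limb 5 were higher at 2 weeks and 2 at 8 weeks, of 10 markers of the collecting duct 6 were higher and 1 lower at 2 weeks and 4 higher at 8 weeks, and of 12 genes of tubular injury 5 were higher at 2 weeks and 10 at 8 weeks. Of 13 macrophage and myeloid genes 0 were called at 2 weeks and 5 were higher at 8 weeks. Red cells are rich in Gpx1, catalase and Sod1. Of 3 erythroid and blood genes tested Slc4a1, which intercalated cells of the collecting duct also express, was higher at 2 weeks, while Hbb, a haemoglobin chain, differed by -0.11 with an adjusted p of 0.712 in limma. Their summed signal was 2248 to 2976 on the salt-fat diet and 2270 to 3302 on the normal diet. Of 4 adipocyte genes 3 were lower at 2 weeks, with a summed signal of 103 to 221 on the salt-fat diet and 168 to 1673 on the normal diet. Direction turned at 8 weeks, when 1 of them, Ucp1, was higher and 0 lower. Their summed signal was then 256.6 to 520.4 on the salt-fat diet and 77.4 to 1377.5 on the normal diet. No gene of these lists was at 0 on all arrays. The part of cell composition, RNA quality and array brightness in the lower Gpx1 and Gpx3 signals was not tested.

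The probe sets whose signals followed those of the called genes most closely over the 24 arrays were chosen by Pearson correlation. For Gpx1 they were Napsa, an aspartic protease, with r = 0.860, Gpx3 with 0.854 and Gstt3, a glutathione transferase, with 0.848. For Gpx3 they were Kap, the kidney androgen-regulated protein of the proximal tubule, with r = 0.962, COX2 with 0.951 and Atp5f1b, a subunit of ATP synthase, with 0.939. COX2 here is the mitochondrially encoded subunit of cytochrome c oxidase and not a cyclooxygenase. At 2 weeks Napsa differed by -0.30 with an adjusted p of 0.0162, whereas Kap, at -0.28, COX2, at -0.31, and Atp5f1b, at -0.25, were not called, with adjusted p values of 0.0912, 0.0503 and 0.0893 in limma. Within groups the members most alike were Gpx3 and Sod1 with r = 0.798 and Gpx1 and Gpx3 with 0.784, the 2 ligase subunits gave 0.542, and the lowest was Gpx1 with Gsr at -0.430. Gpx3, Sod1 and Gpx1 also followed the bright-end level of the arrays within groups, with r = 0.952, 0.813 and 0.732. The part of that level in the correlations of members and of the most alike probe sets was not tested.

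Around the 10 genes, 104 other genes of 11 redox lists were tested. At 2 weeks 3 were higher and 10 lower, with a median difference of -0.031, against 8.74% of all probe sets called, 4.19% as lower, and a median of 0.0165. At 8 weeks 8 were higher and 9 lower, with a median of -0.024, against 9.14% of all probe sets called. The interaction called 0 of the 104, against 0.382% of all probe sets.

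Among the peroxidases, Gpx2, the epithelial form best known from the gut, averaged 197 ± 70.3 on the salt-fat diet for 8 weeks and 102 ± 15.3 on the normal diet (SD, n = 6 each). It rose by 0.84 on the log2 scale with an adjusted p of 0.00210 in limma, and was called under all 25 other settings. At 2 weeks its difference was 0.10 with an adjusted p of 0.780, and its interaction of 0.74 had an adjusted p of 0.208. Of the 5 peroxiredoxins only Prdx5 was called by diet, at 0.20 at 2 weeks with an adjusted p of 0.0306 in limma, a call that 15 of 25 other settings kept, and it was not called at 8 weeks.

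Of 18 glutathione transferases, which couple glutathione to electrophiles, 2 were higher and 1 lower at 2 weeks, and 3 higher and 1 lower at 8 weeks. The shares called over all probe sets were 8.74% at 2 weeks and 9.14% at 8 weeks. Gstp1 averaged 1343 ± 115 on the salt-fat diet for 2 weeks and 1003 ± 92.8 on the normal diet (SD, n = 6 each), with differences of 0.42 at 2 weeks and 0.38 at 8 weeks and adjusted p values of 0.00216 and 0.00457 in limma. Gsta3 was also higher at both times, by 0.47 and 0.45, with adjusted p values of 0.0128 and 0.0165. Gstt3 moved the other way at 2 weeks, averaging 2188 ± 134 on the salt-fat diet and 2773 ± 88.9 on the normal diet (SD, n = 6 each), a difference of -0.34 with an adjusted p of 0.000707 in limma. At 8 weeks Gstm1 was higher by 0.86 and Mgst3 differed by -0.25, with adjusted p values of 0.0224 and 0.0247. With single animals left out the Gstm1 difference ranged from 0.60 to 1.02, and 2 of 12 such fits lost the call, as did 3 for Mgst3 and 1 for Gsta3 at 8 weeks. Of 25 other settings 20 kept the Gstm1 call, with a lowest difference of 0.44. For Mgst3 and for Gsta3 at 8 weeks 21 kept it. Near-identical copies in this family mean that a probe set may read more than the gene it is named for.

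Of the 15 genes of glutathione synthesis and turnover, Gclc, Gclm and Gsr included, none was called at 2 weeks, and Dpep1, a brush-border dipeptidase, alone was called at 8 weeks. For this and the next 2 lists the shares called over all probe sets were 8.74% at 2 weeks and 9.14% at 8 weeks. Dpep1 fell by 0.41 on the log2 scale with an adjusted p of 0.0250 in limma, while its other probe set gave -0.31 with an adjusted p of 0.193, and 4 of 12 fits without 1 animal lost the call. Of 25 other settings 19 kept the Dpep1 call. Of the 15 genes of the thioredoxin and glutaredoxin list none was called at 2 weeks. At 8 weeks Srxn1, sulfiredoxin, was higher by 0.44 with an adjusted p of 0.0356 and Msrb1, a methionine sulfoxide reductase, differed by -0.23 with an adjusted p of 0.0413, and these calls were kept by 15 and 12 of 25 other settings. None of the 6 genes for superoxide dismutases, catalase and metallothioneins was called at either time.

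Of 7 genes that regulate NRF2, none was called at either time, and Nfe2l2, which encodes NRF2 itself, differed by -0.02 at 2 weeks and 0.08 at 8 weeks. Of 12 other NRF2 targets, Nqo1 included, 2 were lower at 2 weeks, Nqo2 at -0.32 and Ephx1 at -0.30, with adjusted p values of 0.0325 and 0.0167 in limma. Over all probe sets, 4.19% were called as lower at 2 weeks and 9.14% in either direction at 8 weeks. The Nqo2 call was kept by 15 of 25 other settings, with differences of -0.36 to -0.13, and that of Ephx1 by 23, with -0.37 to -0.11. At 8 weeks Hmox1, heme oxygenase 1, ran from 80.7 to 472 on the salt-fat diet, against 53.7 to 89.2 on the normal diet. Hmox1 rose by 1.26 ± 0.29 on the log2 scale with an adjusted p of 0.00677 in limma, and all 24 other settings kept the call. Nqo2 was lower again, at -0.36 with an adjusted p of 0.0153. Of the 8 genes of NADPH supply, Idh1, the cytosolic isocitrate dehydrogenase, differed by -0.26 at 2 weeks and -0.24 at 8 weeks, with adjusted p values of 0.00697 and 0.0132, and Pgd, of the pentose phosphate pathway, by 0.26 at 8 weeks with an adjusted p of 0.0147. Over the 25 other settings the 2-week difference of Idh1 lay between -0.29 and -0.08 and 22 kept its call. The Pgd call was kept by 22 of 25 as well, and was lost in 1 of 12 fits without 1 animal.

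Of 10 genes for sources of superoxide and peroxide, 5 were lower at 2 weeks and 0 higher, against 4.19% of all probe sets called as lower, and 2 were lower and 1 higher at 8 weeks, against 9.14% called in either direction. Nox4, the NADPH oxidase abundant in kidney tubules, averaged 181 ± 34.5 on the salt-fat diet for 2 weeks and 305 ± 22.8 on the normal diet (SD, n = 6 each), and 188 ± 41.2 on the salt-fat diet for 8 weeks against 271 ± 33.1 on the normal diet. The differences were -0.74 and -0.53, with adjusted p values of 0.000337 and 0.00723 in limma, and every other setting kept both calls. Cyba, the p22phox subunit that stabilises such oxidases, differed by -0.40 at 2 weeks with an adjusted p of 0.00274. The other 3 lower at 2 weeks were Xdh, xanthine dehydrogenase, at -0.28, Maob, monoamine oxidase B, at -0.43, and Hao2, a peroxisomal hydroxy acid oxidase, at -0.33, with adjusted p values of 0.0142, 0.0194 and 0.0134 in limma. Over the 25 other settings the difference lay between -0.38 and -0.02 for Hao2, which is among the bright probe sets, between -0.31 and -0.10 for Xdh and between -0.46 and -0.22 for Cyba. The call was kept by 23 settings for Hao2, 22 for Xdh, 23 for Cyba and 19 for Maob, and the Maob call was lost in 3 of 12 fits without 1 animal. At 8 weeks Maob was lower again, at -0.39 with an adjusted p of 0.0318 in limma. That call was kept by 16 of 25 other settings and lost in 5 of 12 fits without 1 animal. Rac2, the GTPase of the phagocyte oxidase, was higher at 8 weeks by 0.41 with an adjusted p of 0.0145 in limma.

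Gpx1, Gpx3 and Txnrd1 are selenoproteins. Of 12 genes in a list of other selenoproteins, 1 was lower at 2 weeks and 2 at 8 weeks. Over all probe sets tested 8.74% were called at 2 weeks, 4.19% as lower, and 9.14% in either direction at 8 weeks. That list also holds Secisbp2, a factor for making selenoproteins and itself none, and leaves out those of the lists above. Of these, Gpx2 was higher at 8 weeks, by 0.84, and Msrb1 lower, at -0.23, while Gpx4, Txnrd2 and Txnrd3 were not called by diet. Selenop, the selenium carrier of plasma, averaged 3195 ± 416 on the salt-fat diet for 2 weeks and 4353 ± 217 on the normal diet (SD, n = 6 each), with no overlap between 2541 to 3610 and 3985 to 4599. Its difference was -0.45 ± 0.08 with an adjusted p of 0.000984 in limma, every other setting kept the call, and at 8 weeks it was -0.05 with an adjusted p of 0.796. Dio1, the type 1 deiodinase, and Sephs2, which makes the selenium donor, were the 2 of this list lower at 8 weeks, at -0.47 and -0.38 with adjusted p values of 0.0102 and 0.0108 in limma.

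**Figure D4:**
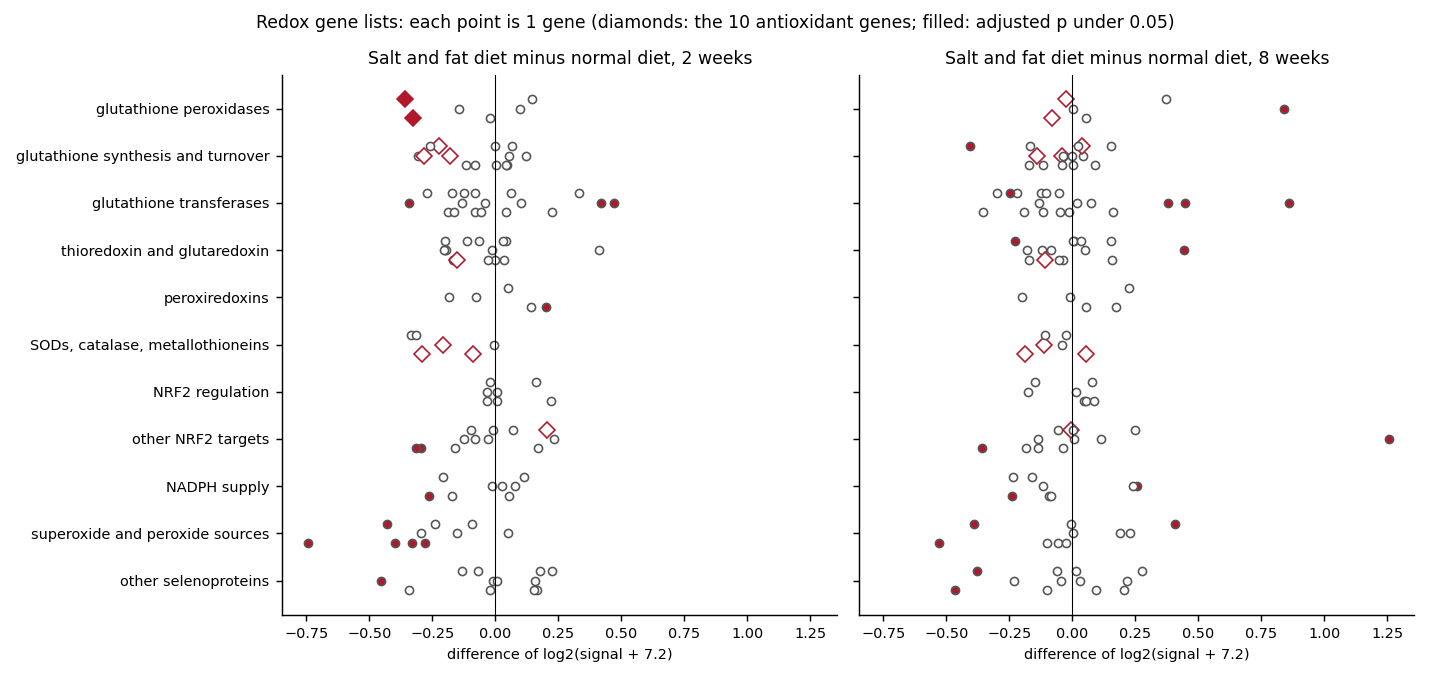
Log2 difference of the salt-fat diet minus the normal diet for every tested gene of the 11 redox lists, at 2 weeks and at 8 weeks, 1 point a gene, with the 10 antioxidant genes as diamonds and points filled where the adjusted p in limma was under 0.05. The sources of superoxide and peroxide lie mostly below 0 at 2 weeks, and Hmox1 lies farthest to the right at 8 weeks.

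With time on the salt-fat diet, 9 of the 104 other genes were called at 8 against 2 weeks, 5 higher and 4 lower, against 3.53% of all probe sets, and 0 on the normal diet, against 0.0392%. The higher ones were Hmox1 by 1.47, Rac2 by 0.54, Akr1b8, an aldo-keto reductase, by 0.47, Cybb, the catalytic subunit of the phagocyte oxidase, by 0.46 and Xdh by 0.39, and the lower ones were Hagh, a glyoxalase, at -0.33, Nnt, the mitochondrial transhydrogenase, at -0.29, Prdx5 at -0.28 and Anpep, aminopeptidase N, at -0.27. The calls of Cybb and Anpep were lost in 6 and 7 of 12 fits that left out 1 animal each, and were kept by 16 and 13 of 25 other settings. In the same comparison 9 of the 13 macrophage and myeloid markers were higher and 0 lower, and 9 of the 12 genes of tubular injury were higher and 0 lower. The part of either in the changes of the redox genes was not tested.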

How the data were processed

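The authors deposited 1 intensity value per probe set and array. The submitters' processing notes name MAS5, whose version, scaling target and earlier steps are not given in the sources used here. Per the labels' protocols, RNA from pulverised whole kidney was purified with Trizol and RNeasy and turned into biotinylated cRNA. The table held 15923 probe sets on 24 arrays, 57 of them controls, with 27 values at 0 and 0 missing. The mean without the lowest and highest 2% was 149.5 to 150.0 on every array, so arrays had been scaled alike, and array medians were 68.7 to 78.7. No scan dates were given, and the number of animals limits the precision.

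Values were analysed as log2(signal + 7.2), where 7.2 is 0.1 of the median array median. A probe set was tested where it exceeded its array's 40th percentile on at least 6 of 24 arrays, which left 10208, 8656 of them with 1 symbol, for 7493 genes. Group means were fitted to all 24 arrays in R 4.3.3 with limma 3.58.1 and an intensity trend, with Benjamini-Hochberg adjustment over the probe sets tested and two-sided tests. The fit was tested on simulated data. Array measures were compared with exact permutation tests in Python 3.11.15 with SciPy 1.17.1. Symbols came from the platform annotation, in which 12783 probe sets had 1 symbol, 312 several and 2771 none, and updating them through a RefSeq gene table of GRCr8 changed 0.

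All members were named, with the other genes of the redox lists that were called in a comparison, and the 3 most alike probe sets of each member called. The members and the lists were chosen with earlier results of these data known. Same-numbered arrays of the 2 diets did not deviate together (correlations of -0.066 to 0.103). The labels do not say what a replicate number marks, so no block was used. These correlations cannot exclude a shared litter, batch or day. The alternatives were other pseudocounts, scalings, filters, spreads and covariates, a replicate block and leaving out single arrays.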

Additional observations from a re-analysis of the deposited data

Results flagged for a closer look

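Of 48 sets of 6 arrays, which are 12 probe sets in 4 groups, 2 held an array far from the other 5, and chance alone marks about 1 in 20. Both were on the salt-fat diet for 2 weeks. The second probe set of Txnrd1 had a signal of 281.8 in replicate 2, below the others at 432.9 to 556.3, and the gap to the nearest was 0.6298 of the group's range. Nqo1 had a signal of 82.1 in replicate 6, above the others at 64.4 to 70.0, and the gap was 0.6591 of the range. The other probe set of Txnrd1 held no such array, and neither gene was called in any comparison.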

How the results depend on the processing

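With 6 animals a group and 12 probe sets, the direction of the differences at 2 weeks held in most settings, but calls near the threshold did not, and the causes were not tested. Of 770 member values recomputed, 717 kept direction and call, 31 turned sign, 11 lost a call and 11 gained one; of 973 values of the other redox genes called, 855 kept both, 118 lost the call and none turned sign.

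Member genes called at 2 weeks, 2 as reported, were 0 after quantile normalization and with the spiked controls as a covariate, 1 without the filter on low signals, and 1 to 4 when single arrays were left out. The count was 1 without normal-diet array 1, 3 or 6 or salt-fat array 5, and 4 without salt-fat array 4. Gpx1 was called in 23 of 25 settings and Gpx3 in 16. The labels do not say whether same-numbered arrays are paired. With the replicate number as a block 4 genes were called, adding Gclm with an adjusted p of 0.0448 and Sod2 with 0.0461 in limma.

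Probe sets called at 2 weeks, 892 as reported (464 higher, 428 lower), were 314 with the GAPDH ratio and 482 with the spiked controls as a covariate, and 2807 (2662 higher, 145 lower) with arrays centred on the brightest probe sets, an alternative added after seeing the data. Those at 8 weeks, 933 as reported, were 542 without both normal-diet arrays 1 and 2, which stood apart, 497 with the spiked controls, and 543 to 1120 without single arrays. The interaction, 39 as reported (35 higher, 4 lower), gave 4 with the GAPDH ratio, 0 with the spiked controls, 160 (17 higher, 143 lower) centred on the brightest, and 22 to 50 without single arrays. Time on the salt-fat diet, 360 as reported, gave 223 with only the groups compared and 220 to 507 without single arrays. Time on the normal diet, 4 as reported, gave 2 with medians centred, 9 without both arrays and 9 centred on the brightest, 0 without the trend, with only the groups compared and with either covariate, and 0 to 10 without single arrays.

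Signs turned as follows. At 2 weeks centring on the brightest probe sets gave 0.0926 for Sod1, 0.0046 for Gsr, 0.0702 for the second probe set of Gclc and 0.03 for Txnrd1; it moved the median of all probe sets tested to 0.20, and all of these still lay below that median, so these turns follow from its construction. Quantile normalization gave 0.121 for Sod1, 0.0957 for that probe set and -0.003 for Gpx1 with time on the salt-fat diet. The spiked controls as a covariate gave 0.0544 for Sod1 and 0.0622 for the same probe set at 2 weeks, and -0.0575 for Sod1, -0.0554 for Gclm, -0.0792 for the second Gclc probe set and 0.0412 for Nqo1 at 8 weeks. For Gpx3 they gave -0.0574 for the interaction, -0.0193 with time on the salt-fat diet and 0.0382 on the normal diet. Without both normal-diet arrays Gclm was at -0.06 and the second Gclc probe set at -0.0339 at 8 weeks. Without single arrays the 8-week differences ranged from -0.0847 to 0.0395 for Gpx3, -0.0151 to 0.0801 for Gclm, -0.0891 to 0.0216 for Gclc and -0.1142 to 0.0688 for Nqo1.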
